A study of Mus musculus with 24 samples.

Results

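The insulin and insulin-like growth factor (IGF) system was described in the hippocampus of neonatal mice by 10 genes: the ligands Ins1, Ins2, Igf1 and Igf2, the receptors Insr, Igf1r and Igf2r, and the binding proteins Igfbp2, Igfbp3 and Igfbp5. Members were taken as every non-control probe of the array that carried one of these 10 gene names, which gave 17 probesets on 31 spots, of 55681 probesets and 36163 gene names in all. A probeset is 1 probe sequence, averaged over its spots. All 17 were well above background on all 15 arrays.

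The mice were C57BL/6 pups, labelled male, whose hippocampal RNA was taken at postnatal day 9 (P9) and hybridized to 1-colour Agilent arrays, with 5 arrays per group and 1 animal per array. The Con pups were untreated and housed with their dam. The MS2 and MS5 pups received morphine at 2 or 5 mg/kg before each bout of apnea, and were also separated from the dam, daily from P5 to P9. Every difference from Con therefore spanned the morphine and the stress protocol, which cannot be told apart, because no group had stress alone. Treated pups went back each day to the cage of their untreated littermates. The hippocampi of both sides of 1 animal made 1 sample.

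Insulin, IGF1 and IGF2 are related peptide ligands. Insulin and the IGFs signal through the tyrosine kinase receptors encoded by Insr and Igf1r to the insulin receptor substrates, PI3 kinase, Akt and mTOR, while the receptor encoded by Igf2r takes up IGF2 and carries it to lysosomes. The IGF binding proteins hold IGFs in the extracellular fluid and set how much ligand reaches the receptors. In the developing brain IGF1 supports growth, survival and myelination, and Igf2 and Igfbp2 are known to be strongly expressed in choroid plexus and meninges. The mouse has 2 insulin genes, which in the pancreas are expressed in beta cells.

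The probes of Ins1, Ins2 and Igfbp2 are shown because these 3 genes had the most negative differences between MS5 and Con, and because the insulin genes encode nearly the same peptide. Each sequence is the probe as given in the scanner files, 5′ to 3′, with the stop codon of the coding sequence in capitals. For Ins2 only the first 30 bases are shown.
Ins1: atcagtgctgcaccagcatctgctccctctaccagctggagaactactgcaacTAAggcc
Ins2: gcaacTAGacccaccactacccagcctacc
Igfbp2: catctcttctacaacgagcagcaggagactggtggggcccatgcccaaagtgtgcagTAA

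The Ins1 probe lay at chr19:52339385-52339444 (mm9, + strand), with 53 of its bases before the stop codon, in the part that encodes the insulin A chain. The Ins2 probe lay at chr7:149864566-149864625 (mm9, − strand) with 5 bases before the stop codon and the rest after it. The longest run that both probes shared was 7 bases, GCAACTA. The A chain is the same in both insulins, so Ins2 RNA may pair with the Ins1 probe, and this was not tested here. The Igfbp2 probe shown lay at chr1:72898677-72898736 (mm9, + strand), with 57 coding bases and the stop codon, and the other Igfbp2 probe began 76 bases beyond its end.

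Some arrays stood apart. The array of MS5 animal 9 carried Xist at 11.34 (log2) against 5.89 to 6.08 on the other arrays and Ddx3y at 6.24 against 11.01 to 11.45, which goes against its male label. On the array of MS2 animal 4, 7 markers of hippocampal principal neurons averaged 9.73, against 11.38 to 12.11 elsewhere, and 10 markers of hypothalamus and thalamus averaged 10.45, against 7.59 to 9.15 elsewhere. The array of MS2 animal 5 was dim, with a median spot signal of 51.0 against 100 to 128 on the others. Of the non-control spots 67.1% to 79.0% were well above background per array, and 0 were saturated. Because neither tissue makeup nor RNA per cell was measured, fewer cells of a type and less RNA per cell cannot be told apart in any value given here.

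All levels are log2 normalized intensity, and a difference of 1 is a doubling or halving. Levels of different probes cannot be set against each other, since probes differ in how brightly they bind. A probeset was past the threshold where limma gave a change of over 1.5-fold and an unadjusted p below 0.05. These are the limits that the paper gives with its results, where it applied them to a smaller set of probesets. Limma called 0 of 55681 probesets (0%) at an adjusted p under 0.05 in any of MS2 versus Con, MS5 versus Con and MS5 versus MS2. With 1 probeset for each of the 36163 gene names and an unadjusted p below 0.05, it called 4.03%, 4.21% and 3.93% in these 3 comparisons. The 10 genes were chosen by their log2 values on these same arrays, so those values are a description, and no p-value is given for them.

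Of the 17 member probesets, 1 was past the threshold in MS5 versus Con, where 0.228% of all probesets were. It was Ins1, which was lower. In MS5 versus MS2 Ins1 alone was past the threshold, with a background of 0.129%. That call was lost without MS2 animal 1 or 3 or MS5 animal 9 or 14, with differences of -0.48 to -0.57, and in a fit of only these groups. In MS2 versus Con 0 members were past the threshold, with a background of 0.0233%. In MS5 versus Con 13 member probesets were lower and 4 higher, with a median difference of -0.10. Over all probesets 49.8% were lower, with a median of 0.0003. In MS2 versus Con 12 members were lower and 5 higher, with a median of -0.05, where 51.1% of all probesets were lower. Because Igf1, Insr and Igfbp2 had several probesets each, these are not counts of genes. The comparisons of MS2 and of MS5 share their Con arrays. The plot of differences from Con gives all 17 side by side.

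**Figure D1:**
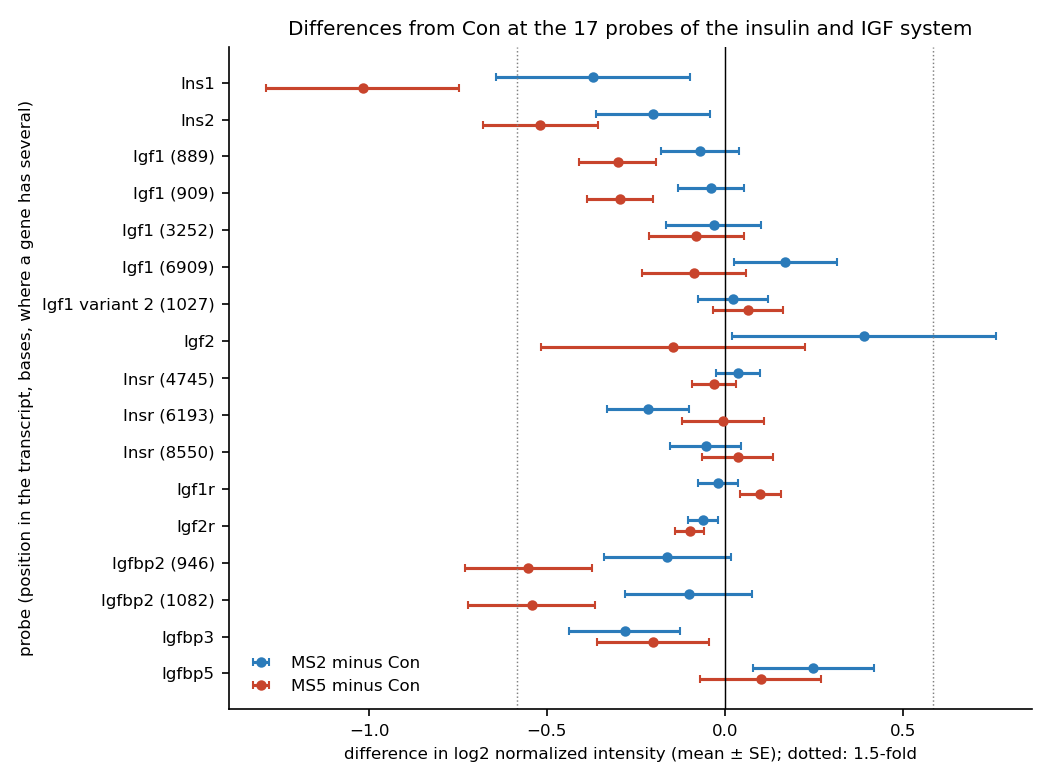
Differences in log2 normalized intensity from Con at the 17 probes, as group mean difference ± SE (5 arrays per group), for MS2 (blue) and MS5 (red), with dotted lines at 1.5-fold. Ins1 in MS5, at -1.02, is the only mean beyond a dotted line, and Ins2 and both Igfbp2 probes in MS5 come next, at -0.52 to -0.55.

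Of the ligands, Ins1 had the largest difference between MS5 and Con. The Con arrays of animals 15 to 19 had 8.24, 8.72, 8.92, 8.25 and 8.58. The MS2 arrays of animals 1, 3, 4, 5 and 7 had 8.65, 8.46, 7.67, 8.03 and 8.05, and the MS5 arrays of animals 8, 9, 12, 13 and 14 had 8.08, 6.86, 8.23, 7.61 and 6.84. Every MS5 array was below every Con array, by 0.01 at the nearest pair, and animals 9 and 14 were far below the rest. Among all probesets, 0.526% had MS5 arrays that were all lower than the Con arrays. MS2 values overlapped both other groups.

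The mean of Ins1 was 8.54 ± 0.30 in Con, 8.17 ± 0.39 in MS2 and 7.52 ± 0.66 in MS5 (SD, n = 5). The difference from Con was -1.02 ± 0.27 (SE) in MS5, a 2.02-fold lower level, and -0.37 ± 0.27 in MS2. MS5 was lower than MS2 by 0.65 ± 0.27. Without the array of MS5 animal 9 the difference of MS5 from Con was -0.85, and without that of MS5 animal 14 it was also -0.85. The arrays were on 2 slides, each with all 3 groups: MS5 minus Con was -0.63 on slide 1 and -1.33 on slide 2, and MS2 minus Con was -0.09 and -0.79.

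Ins2, the other insulin gene, was ordered in the same way with smaller differences. Its level was 9.50, 9.94, 9.79, 9.50 and 9.90 in Con animals 15 to 19. It was 9.66, 9.76, 9.22, 9.60 and 9.39 in MS2 animals 1, 3, 4, 5 and 7, and 9.31, 8.92, 9.81, 9.06 and 8.94 in MS5 animals 8, 9, 12, 13 and 14. MS5 animal 12 lay within the Con range, and the other MS5 arrays lay below it, with animals 9 and 14 again the lowest. Means were 9.73 ± 0.21, 9.53 ± 0.22 and 9.21 ± 0.37 (SD, n = 5).

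MS5 differed from Con at Ins2 by -0.52 ± 0.16 (SE), a 1.43-fold lower level that did not reach the 1.5-fold limit, and MS2 by -0.20 ± 0.16. On slide 1 the MS5 difference was -0.41 and on slide 2 -0.70. For MS2 it was 0.00 on slide 1 and -0.51 on slide 2. Without MS5 animal 9 the MS5 difference was -0.45, and without MS5 animal 12 it was -0.67, past the threshold.

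**Figure D2:**
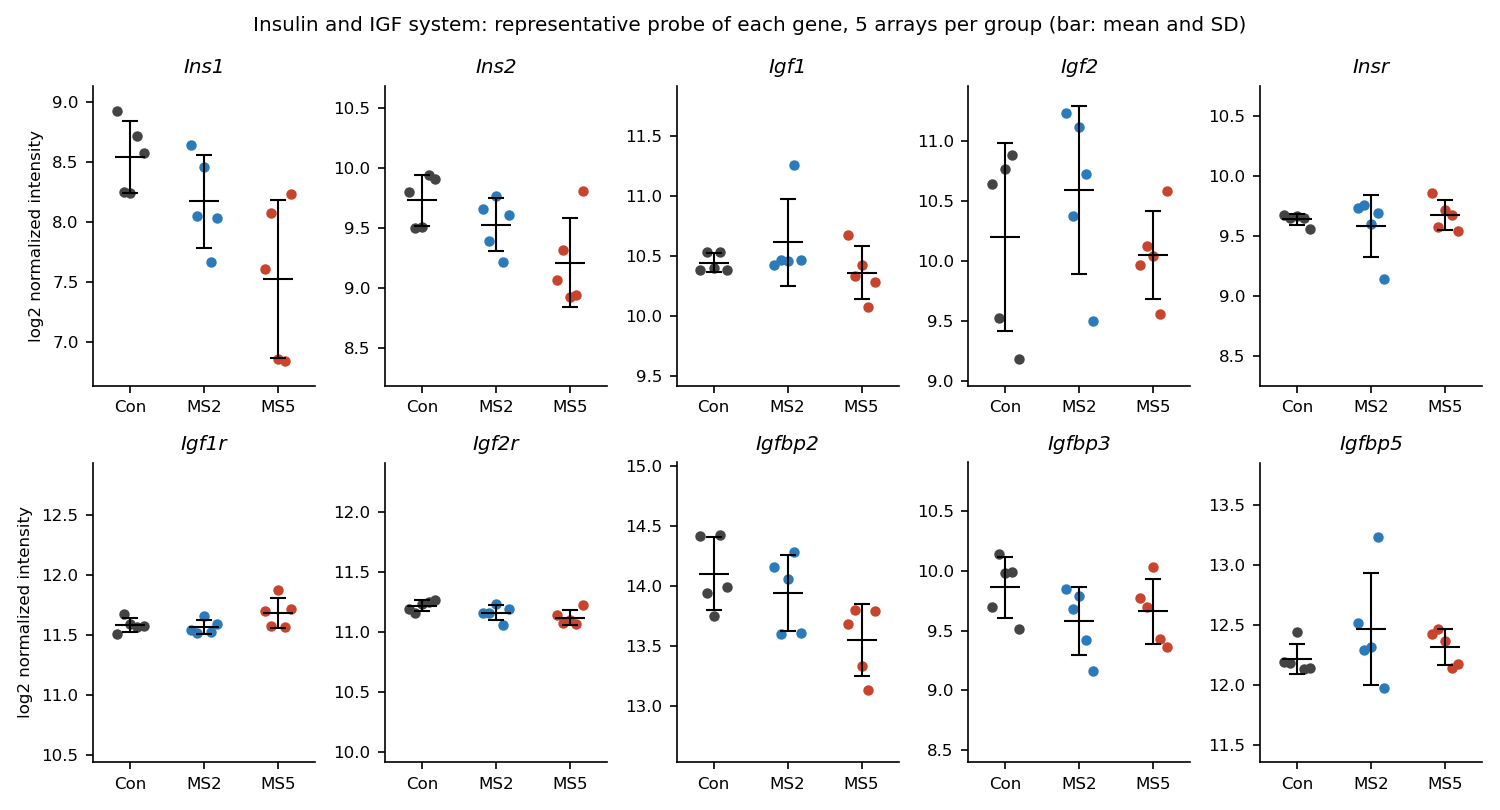
Log2 normalized intensity of the representative probe of each gene on every array (points) with group mean and SD (bars, n = 5), each panel spanning 2.5 log2 units. Ins1 falls from a mean of 8.54 in Con to 7.52 in MS5, Igf2 is spread from 9.19 to 10.88 within Con, and Igf1r and Igf2r vary little within any group.

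Igf1 was measured by 5 probes that did not show the same differences. They were 4 of transcript variant 1, at positions 889, 909, 3252 and 6909 of the transcript, and 1 of variant 2, at position 1027 of that transcript. The first pair share 40 bases, so they are nearly the same measurement. All lay on chromosome 10, those of variant 1 between 87393561 and 87399640 and that of variant 2 at 87378456 to 87378515 (mm9, + strand).

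At the probe at position 909 the Con animals 15 to 19 had 8.95, 9.12, 8.89, 9.05 and 9.30. The MS2 animals 1, 3, 4, 5 and 7 had 8.97, 8.99, 9.32, 8.86 and 8.99, and the MS5 animals 8, 9, 12, 13 and 14 had 8.74, 8.63, 8.95, 8.85 and 8.66. Of the MS5 arrays 4 were below all Con arrays and animal 12 was within their range. MS5 differed from Con by -0.30 ± 0.09 (SE) here and by -0.30 ± 0.11 at position 889, and MS2 by -0.04 ± 0.09 and -0.07 ± 0.11.

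Farther along variant 1 the MS5 difference was smaller, -0.08 ± 0.13 at position 3252 and -0.09 ± 0.15 at position 6909. At the variant 2 probe it was 0.07 ± 0.10. All 3 differences were smaller than 1 SE, and the groups overlapped at every Igf1 probe. At position 6909 the array of MS2 animal 4 stood alone at 11.26, with the other 14 arrays between 10.07 and 10.68. The MS2 difference there was 0.17 ± 0.15 with that array and 0.01 without it. After group means were subtracted, the first pair of probes varied together over the 15 arrays (r = 0.95), as did positions 3252 and 6909 (r = 0.90), whereas the variant 2 probe had an r of 0.07 to 0.32 with the other 4.

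**Figure D3:**
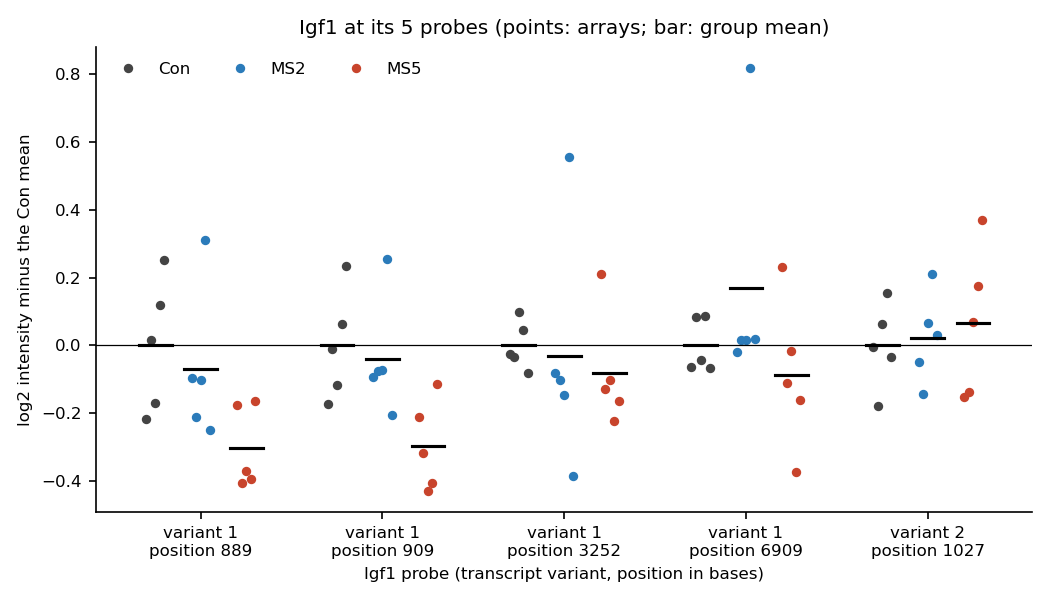
Igf1 at its 5 probes, as log2 normalized intensity minus the Con mean, with arrays as points and group means as bars, ordered by transcript variant and position. MS5 means lie at -0.30 for positions 889 and 909 and within 0.09 of the Con mean elsewhere, and the highest MS2 point at positions 3252 and 6909 is animal 4.

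Igf2, the fetal growth ligand, is expressed from the paternal allele in most tissues and lies next to Ins2. Its probe, at chr7:149839661-149839720 (mm9, − strand), was 24.8 kb from that of Ins2. Igf2 varied more than any other member within Con and within MS2. The Con animals 15 to 19 had 10.77, 10.88, 10.65, 9.53 and 9.19, the MS2 animals 1, 3, 4, 5 and 7 had 11.24, 11.12, 10.73, 9.50 and 10.38, and the MS5 animals 8, 9, 12, 13 and 14 had 10.13, 10.04, 10.58, 9.97 and 9.56. All 3 groups overlapped, and the lowest array of all was a Con array, that of animal 19. That array also had the lowest mean over 13 meningeal markers, 10.42, against 10.55 to 11.64 on the others. The next lowest Igf2 arrays, of MS2 animal 5 and Con animal 18, had meningeal means of 11.03 and 11.39, near the Con mean of 11.21. The array of MS5 animal 14, which followed at an Igf2 level of 9.56, had a lower meningeal mean, 10.75. The part of meningeal RNA in the Igf2 level was not tested.

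The Igf2 difference was 0.39 ± 0.37 (SE) for MS2 and -0.15 ± 0.37 for MS5. Without Con animal 19 they were 0.14 and -0.40, without Con animal 16 the MS5 difference was 0.02, and without MS2 animal 5 the MS2 difference was 0.66. MS5 minus MS2 was -0.54 ± 0.37, and without the dim array of MS2 animal 5 it was -0.81, past the threshold. On slide 1 it was -0.86 and on slide 2 -0.05.

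The receptors differed less. Insr, the insulin receptor, had 3 probes at positions 4745, 6193 and 8550 of its transcript on chromosome 8 (between 3151667 and 3155531, mm9, − strand). MS5 differed from Con by -0.03 ± 0.06, -0.01 ± 0.11 and 0.04 ± 0.10 (SE) at these probes, and MS2 by 0.04 ± 0.06, -0.22 ± 0.11 and -0.05 ± 0.10. The signs of the 3 probes differed within each comparison, and all groups overlapped. At position 8550 the Con arrays spanned only 9.56 to 9.68, whereas MS2 spanned 9.14 to 9.76, with the dim array of animal 5 lowest.

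Igf1r, the IGF1 receptor, was measured at chr7:75378461-75378520 (mm9, + strand). Its Con arrays lay between 11.50 and 11.68, its MS2 arrays between 11.51 and 11.66 and its MS5 arrays between 11.57 and 11.87, with MS5 animal 9 at the top. MS5 differed from Con by 0.10 ± 0.06 (SE), or 0.05 without animal 9, and MS2 by -0.02 ± 0.06. The 3 ranges overlapped.

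Igf2r, the scavenging receptor of IGF2, was the member with the most spots, 10 per array, on chromosome 17 (mm9). Con arrays lay between 11.16 and 11.26, MS2 arrays between 11.06 and 11.23 and MS5 arrays between 11.07 and 11.22. MS5 differed from Con by -0.10 ± 0.04 (SE), a change of -6.66%, and MS2 by -0.06 ± 0.04. In the authors' table, which takes 1 of the 10 spots, the MS5 difference was -0.16. In MS5, 4 of 5 arrays were below every Con array and animal 12 was within their range.

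Igfbp2, a binding protein made in choroid plexus and glia, was lower in MS5 at both of its probes. At the probe shown above the Con animals 15 to 19 had 13.75, 14.43, 14.41, 13.94 and 13.99. The MS2 animals 1, 3, 4, 5 and 7 had 14.15, 14.06, 14.28, 13.61 and 13.60, and the MS5 animals 8, 9, 12, 13 and 14 had 13.80, 13.33, 13.80, 13.68 and 13.13. In MS5, 3 of 5 arrays were below all Con arrays, and animals 9 and 14 were the lowest of all 15.

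The Igfbp2 mean was 14.10 ± 0.30 in Con, 13.94 ± 0.32 in MS2 and 13.55 ± 0.30 in MS5 (SD, n = 5). The MS5 difference from Con was -0.55 ± 0.18 (SE) at this probe and -0.54 ± 0.18 at the other, 1.47-fold and 1.46-fold lower, just under the 1.5-fold limit. For MS2 the differences were -0.16 ± 0.18 and -0.10 ± 0.18. They were -0.08 at the first probe without MS2 animal 7 or without MS2 animal 5, and -0.01 at the second without MS2 animal 5. The probes varied together after group means were subtracted (r = 0.94 over 15 arrays). MS5 minus Con was -0.29 and -0.39 on slide 1 and -0.79 and -0.68 on slide 2. Without MS5 animal 9 it was -0.50 and -0.49, and without MS5 animal 14 it was -0.45 and -0.42.

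Igfbp3, the main carrier of IGFs in serum, had 1 probe at chr11:7106594-7106653 (mm9, − strand). Con arrays lay between 9.51 and 10.14, MS2 arrays between 9.17 and 9.85 and MS5 arrays between 9.36 and 10.03. The difference from Con was -0.28 ± 0.16 (SE) in MS2 and -0.20 ± 0.16 in MS5. The 3 groups overlapped, and without the dim array of MS2 animal 5 the MS2 difference was -0.18.

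Igfbp5, a binding protein with roles in neuronal and glial development, was measured at chr1:72904829-72904888 (mm9, − strand), with 5956 bases between its probe and the nearer Igfbp2 probe. Con arrays lay between 12.13 and 12.44, MS5 arrays between 12.15 and 12.47 and MS2 arrays between 11.98 and 13.24. The top value was that of MS2 animal 4. MS2 differed from Con by 0.25 ± 0.17 (SE), or 0.06 without that array, and MS5 by 0.10 ± 0.17. Although the Igfbp2 and Igfbp5 probes are neighbours, their MS5 differences from Con had opposite signs, but that of Igfbp5 was smaller than its SE.

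Markers of choroid plexus were also lower in MS5. Of 15 choroid plexus markers 15 were lower in MS5 than in Con, with a median difference of -1.27, and 13 were past the threshold, where 0.277% of the 36163 gene names were. They included Kl, the anti-ageing protein Klotho, at -1.11 ± 0.35 (SE), the folate receptor Folr1 at -1.29 ± 0.40, the potassium channels Kcnj13 at -1.56 ± 0.46 and Kcne2 at -1.72 ± 0.70, the water channel Aqp1 at -1.48 ± 0.63 and the transcription factor Otx2 at -1.26 ± 0.53. The other 7 past it were Clic6, Cldn2, Slc4a5, Sostdc1, Enpp2, Calml4 and Car14, at -0.95 to -1.49. The remaining markers were the thyroid hormone carrier Ttr at -1.54 ± 0.72 and the prolactin receptor Prlr at -0.05 ± 0.08. The adjusted p of each of the 15 was 1 in limma. None of the 15 was at background on any array. The list was chosen with earlier results of these data known, and the paper already lists several of its genes, among them Aqp1, Cldn2 and Kl, as lower in MS5. The counts of this list in every comparison are therefore a description.

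Averaged over the 15 choroid plexus markers, the level was 11.22 to 12.13 in Con and 11.28 to 11.89 in MS2. In MS5 it was 11.40, 9.63, 11.66, 10.93 and 8.73 in animals 8, 9, 12, 13 and 14. Animals 9 and 14, lowest in this mean, were also lowest in Ins1, Ins2 and both Igfbp2 probes, and animal 12, the highest MS5 array in this mean, was the highest in Ins1 and Ins2. Some other arrays below all Con arrays in 1 or more of these genes had a marker mean within the Con range. Among them were MS2 animal 4 (Ins1 7.67, Ins2 9.22, marker mean 11.30) and MS5 animal 8 (Ins1 8.08, Ins2 9.31, marker mean 11.40). MS2 animal 5 (Ins1 8.03, Igfbp2 13.61, marker mean 11.37) and MS2 animal 7 (Ins1 8.05, Ins2 9.39, Igfbp2 13.60, marker mean 11.28) were others. MS5 animal 13 (Ins1 7.61, Ins2 9.06, Igfbp2 13.68) had a marker mean of 10.93, below the Con range. The Igfbp2 values here are those at position 946. Without MS5 animal 9, 6 of the 15 markers were past the threshold, and without MS5 animal 14, 8 were, with all 15 lower each time. Without Con animal 16 the count was 8. On slide 1, which held MS5 animals 8 and 13, the mean differed by -0.42 between MS5 and Con, and on slide 2 by -1.89. Its part in the levels of Ins1, Ins2 and Igfbp2 was not tested.

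In MS5 versus MS2, 10 choroid plexus markers were past the threshold, all lower, against 0.16% of gene names, and the count was 0 without MS5 animal 9, 1 without MS5 animal 14 and 2 without MS2 animal 1 or 3. In MS2 versus Con 0 of 15 were past it, against 0.0304% of gene names, with a median of -0.22.

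**Figure D4:**
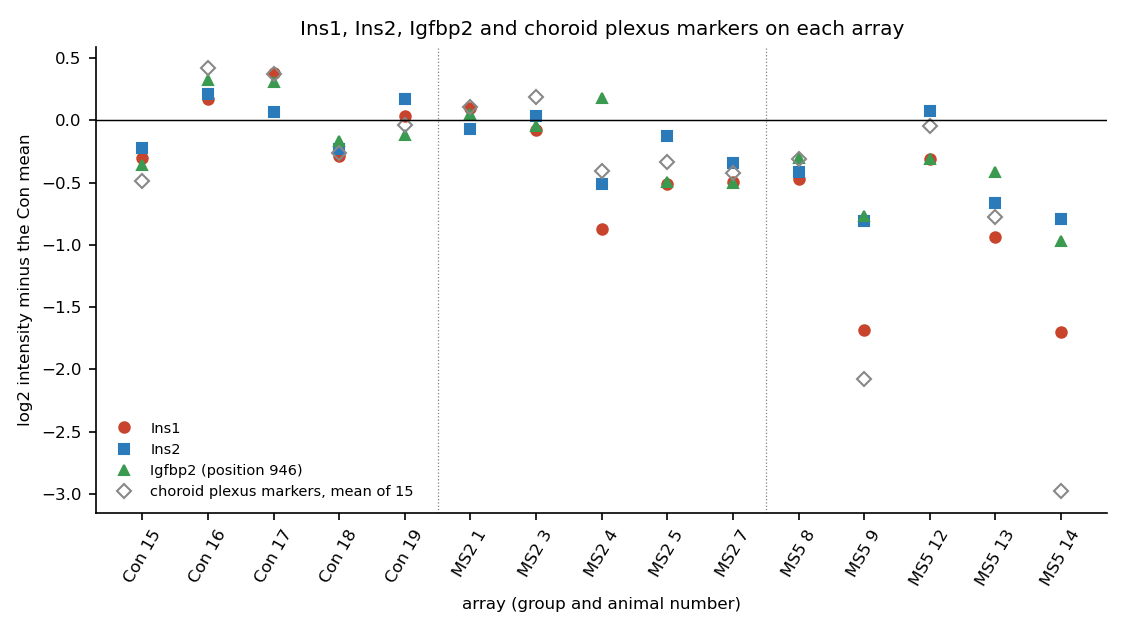
Ins1, Ins2, Igfbp2 (probe at position 946) and the mean of 15 choroid plexus markers on each array, as log2 normalized intensity minus the Con mean, with arrays ordered by group and animal number. MS5 animals 9 and 14 are the lowest arrays in all 4 series, and MS5 animal 12 lies near the Con mean for Ins2 and the marker mean.

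Of the 10 markers of hypothalamus and thalamus, 9 were higher and 1 lower in MS5 versus Con, with a median of 0.22. Past the threshold were 3, where 0.277% of gene names were. They were Trh, Avp and Oxt, which encode hypothalamic peptides, higher by 1.89 ± 0.83, 2.53 ± 1.04 and 1.79 ± 0.69 (SE). The count past the threshold was 1 without Con animal 18 and 0 without MS5 animal 8 or MS5 animal 14. This list was also chosen with earlier results known, and the paper already lists Trh and Avp as higher in MS5. Its counts are therefore a description. The adjusted p of all 10 was 1 in limma. The mean of the 10 was 7.59 to 8.17 in Con, 7.73 to 10.45 in MS2 and 7.85 to 9.15 in MS5. Its highest value, on the array of MS2 animal 4, coincided with the highest Igfbp5 and the highest Igf1 at positions 909, 889, 3252 and 6909. Its part in those levels was not tested.

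Markers of pancreatic islets, where insulin is made, were measured too. The mean of 9 pancreatic islet markers was 6.96 to 7.05 in Con, 6.92 to 7.07 in MS2 and 6.88 to 7.07 in MS5. Of these 9, the islet hormone genes Iapp and Ppy, the glucose transporter gene Slc2a2 and G6pc2 were well above background on no array, and the transcription factor gene Pdx1 was on 1. The others were well above background on 14 arrays (the glucagon gene Gcg) or all 15 (Ucn3, Nkx6-1 and Mafa), and 0 of the 9 were past the threshold in any comparison. Of 6 markers of exocrine pancreas and 7 of liver, 0 were past the threshold in MS5 versus Con, with medians of -0.10 and -0.02, and 3 of the liver markers were well above background on no array. The lists of endothelium, mural cells, microglia, astrocytes, oligodendrocytes, interneurons, hippocampal principal neurons, meninges and red blood cells also had 0 genes past the threshold in each of the 3 comparisons. Some still leaned to 1 side. In MS5 versus Con 12 of 13 meningeal markers were lower (median -0.20), as were 4 of 4 of red blood cells (-0.38). So were 6 of 7 of principal neurons (-0.28) and 6 of 7 of mural cells (-0.05). Higher were 7 of 9 interneuron markers (0.20) and 6 of 7 of the oligodendrocyte lineage (0.08). In MS5 versus MS2 13 of 13 meningeal markers were lower (-0.23) and 8 of 8 of microglia higher (0.07). In MS2 versus Con 6 of 7 markers of principal neurons were lower (-0.54) and 1 higher. Their mean was 9.73 on the array of MS2 animal 4. It was 11.85 to 12.06 on the other MS2 arrays and 11.67 to 12.11 in Con.

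No further gene of the pathway was past the threshold in any comparison. Of 68 further genes listed, 67 were measured. In MS5 versus Con 32 were higher and 35 lower, with a median of -0.02, and 0 were past the threshold, where 0.277% of gene names were. Without the fold limit, at an unadjusted p under 0.05, limma called 2 in MS5 versus Con (2.99%, against 4.21% of all gene names), 1 in MS2 versus Con (1.49%, against 4.03%) and 4 in MS5 versus MS2 (5.97%, against 3.93%).

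The calls in MS5 versus Con were Ctsd, a lysosomal protease that can cleave binding proteins, which was lower by 0.22 ± 0.10 (SE), and Rptor, the mTOR complex subunit Raptor, lower by 0.08 ± 0.04. In MS2 versus Con Eif4ebp1, a translation repressor that mTOR phosphorylates, was lower by 0.29 ± 0.12. In MS5 versus MS2 the substrate Irs4 was higher by 0.20 ± 0.07 and the PI3 kinase subunit Pik3r1 by 0.11 ± 0.04, while Igf2as, an antisense transcript of the Igf2 locus, was lower by 0.29 ± 0.12 and Rptor by 0.10 ± 0.04. Each of these had an adjusted p of 0.97 or above in limma.

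In the list of 6 other binding proteins, 5 were lower and 1 higher in MS5, and the largest difference was that of Igfbpl1, at -0.34 ± 0.39 (SE). Igfbp6 was at 0.27 ± 0.43 and Igfbp4 at -0.13 ± 0.12. Among 7 proteases of ligands and binding proteins and their inhibitors, the largest was Pappa, which cleaves Igfbp4, at 0.32 ± 0.30. The insulin-degrading enzyme Ide was at 0.06 ± 0.07. None of these differences was past the threshold.

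The 4 genes that process proinsulin and other prohormones, Pcsk1, Pcsk2, Cpe and Scg5, lay between -0.04 and 0.04 in MS5 versus Con. At the Igf2 locus, Igf2as was at -0.22 ± 0.12 (SE) and the maternally expressed non-coding RNA H19 at -0.18 ± 0.29, and the IGF2 mRNA binding proteins Igf2bp1, Igf2bp2 and Igf2bp3 lay between -0.08 and 0.09. Of 8 other measured ligands and receptors of the insulin and relaxin families the largest difference was that of Insl6, at -0.13 ± 0.11. Igfals, Pappa2 and Rxfp2 were well above background on 5, 1 and 1 of 15 arrays, so small changes in them could not be seen.

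Downstream of the receptors, 9 of 11 substrates and adaptors were higher and 2 lower in MS5, with a median of 0.04. The largest difference was that of the adaptor Shc1, at -0.16 ± 0.09 (SE), and the substrates Irs1 and Irs2 were at 0.02 ± 0.10 and 0.04 ± 0.09. Of 13 genes of PI3 kinase and Akt, 6 were higher and 7 lower, with Pik3r3 at 0.24 ± 0.15 the largest and Akt1 at -0.05 ± 0.04. Of 13 genes of mTOR, Gsk3 and Foxo, 7 were higher and 6 lower, with Eif4ebp1 at -0.21 ± 0.12 the largest, Mtor at 0.04 ± 0.07 and Foxo1 at 0.03 ± 0.22.

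**Figure D5:**
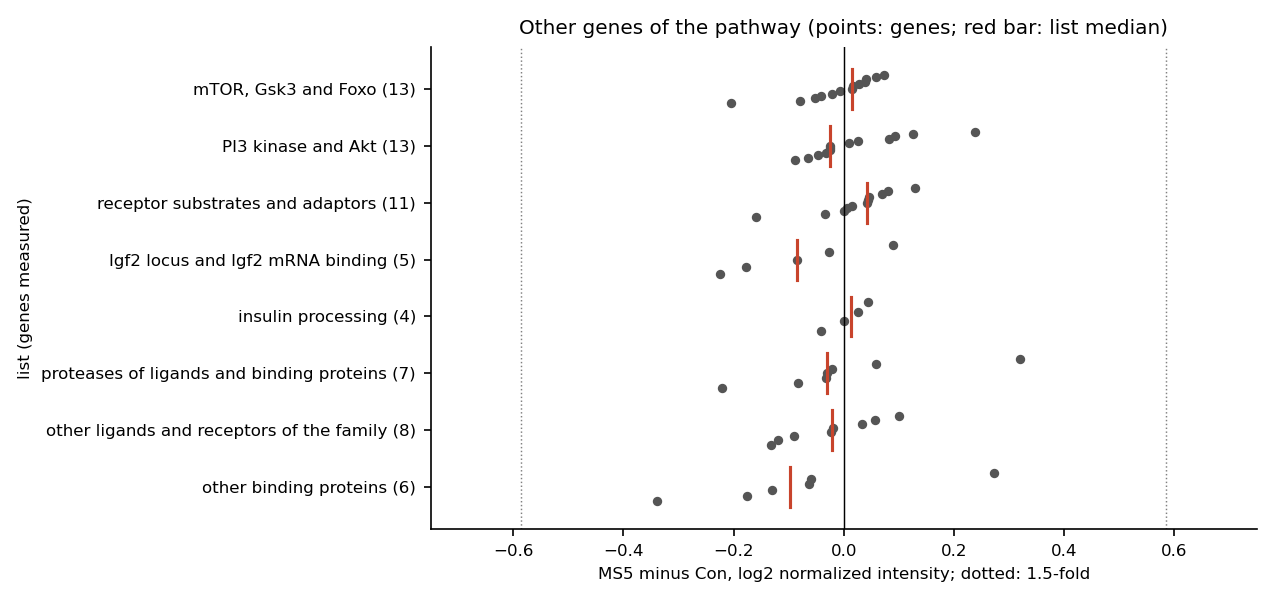
MS5 minus Con in log2 normalized intensity for the 67 further pathway genes measured, by list, with points for genes, red bars for list medians and dotted lines at 1.5-fold. No point reaches a dotted line, and the medians lie between -0.10 and 0.04.

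The genes most like each member were found by Pearson's r over the 15 arrays after group means were subtracted, among 36270 probesets well above background on all arrays. For Ins1 they were Iqcd (r = 0.98), Fxyd1 (0.97) and Kl (0.97), with Spearman's rho of 0.98 to 0.99. Without the arrays of MS5 animals 9 and 14, the farthest from the median in Ins1, r was 0.96, 0.97 and 0.95. For Ins2 they were Wdr16 (0.98), 1700007G11Rik (0.97) and Ccdc113 (0.97), with 0.96 to 0.97 without the same pair of arrays. For Igfbp2 they were Tjp3 (0.94), Six5 (0.93) and Col4a4 (0.93), with 0.90 to 0.93 without MS5 animal 14 and Con animal 16.

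For Igf1 at position 6909 the nearest were Dmbx1 (r = 0.95), Gata3 (0.94) and Tal1 (0.93), and without MS2 animal 4 and MS5 animal 14 these were 0.84, 0.73 and 0.85. For Insr they were Ankrd32 (0.96), Cul2 (0.94) and Tceal1 (0.94), with 0.83, 0.71 and 0.78 without MS2 animal 5 and MS5 animal 13. For Igfbp5 they were 4930544O15Rik (0.96), Hn1l (0.95) and Srpx2 (0.95), with 0.88, 0.77 and 0.85 without MS2 animals 4 and 5.

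The nearest to Igf2 were Gm8556, Lrp6 and Hmg1l1 (r = 0.91 to 0.92, and 0.80 to 0.85 without Con animal 19 and MS2 animal 5). For Igf1r they were Pcdhac2, Pou2af1 and Lix1l (0.84 to 0.88, and 0.73 to 0.78 without MS5 animals 9 and 12). Anxa8, Lhfpl2 and Derl1 were nearest to Igf2r (0.85 to 0.86, and 0.78 to 0.83 without Con animal 19 and MS2 animal 4). Csnk1g3, Txnl4a and an intergenic transcript were nearest to Igfbp3 (0.91 to 0.93, and 0.87 to 0.89 without MS2 animal 5 and Con animal 18). These values are the highest of many, share the same arrays and carry no test.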

How the data were processed

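Hippocampal RNA from 15 pups was measured on 1-colour Agilent arrays, 5 per group, grouped by their titles. The scanner files that the authors deposited hold spot intensity from Agilent Feature Extraction 10.7.1.1, with no normalization between arrays. The authors' deposited table of the series holds log2 values after normexp background adjustment and quantile normalization, and the steps used here gave the same values at the first spot of 55821 probes, within 5.0e-09. The miR table was not used.

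With R 4.3.3, data.table (version 1.17.8) and limma 3.58.1, the mean signal was adjusted for the local background by normexp with an offset of 50 and quantile normalized over 62976 spots. After log2, the 3671 control spots were left out and each probe was averaged over its spots. A single limma model of the 3 groups gave all contrasts, and p-values were adjusted by Benjamini-Hochberg over 55681 probesets. Steps were tested on simulated data. The number of arrays limits the precision. Litters were culled and the experiment was repeated to reach the group size, but which pups shared a litter is not given in the sources used here. Each SD therefore measures the spread between these animals. Each SE comes from limma, with that spread pooled over the 3 groups and moderated across all probesets.

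For each gene 1 probeset stood, a probe of the A_51 or A_52 kind where there was one, and among equals the brightest. Members, pathway lists and marker lists were chosen with earlier results of these data known. Named were all members by every probe, in each pathway list the genes past the threshold or else the one with the largest MS5 difference, marker genes past the threshold, and the 3 gene names most like each member; other pathway genes and Ttr, Prlr, Xist, Ddx3y and the islet markers were named after their values were seen. A listed alias was accepted only where it is not the symbol of another gene, which left 1 pathway gene, Insl3, unmatched. Gene names are those of the array. Alternatives were array weights, an offset of 0, the processed signal with each array scaled by its 75th percentile, a filter on dim probesets, the slide as a block, the authors' values, only the groups compared, the brightest probeset per gene, each slide, and leaving out each array. Leaving out MS2 animals 4 and 5 and MS5 animal 9 together was chosen after seeing the data.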

Additional observations from a re-analysis of the deposited data

Results flagged for a closer look

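In each group of 5 arrays the highest or lowest value of a member probeset was compared with its neighbour, and it was taken as far from the rest where the gap exceeded 0.71 of the range of the group. Of 51 such groups 7 had a value of this kind, where chance gives about 1 in 20 of independent groups. These groups are not independent, since they share arrays and 2 of the Igf1 probes overlap, and the members were chosen by these values, so the count is a description. On the array of MS2 animal 4 the Igf1 probes at positions 909, 889 and 6909 read 9.32, 9.34 and 11.26, each the highest of MS2, against 8.99, 8.93 and 10.47 on the next array. MS5 animal 13 had the highest MS5 value of the Igf1 probe at position 3252, 7.98 against 7.66. The Insr probe at position 8550 was lowest in its group in Con animal 19, at 9.56 against 9.65, and in MS2 animal 5, at 9.14 against 9.60. Igfbp5 was highest among Con arrays in animal 15, at 12.44 against 12.19.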

How the results depend on the processing

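The count of member probesets past the threshold stayed at 0 in MS2 versus Con under all 23 alternatives, and that of pathway genes at 0 in all 3 comparisons under all 24. In MS5 versus Con the member count was 1 with all arrays and 3 with array weights, where both Igfbp2 probes joined Ins1, and leaving out 1 array gave 1 to 4. It was 2 without Con animal 18, MS5 animal 13 or MS5 animal 8 and 3 without Con animal 15, with Igfbp2 added, and 4 without MS5 animal 12, with Ins2 and both Igfbp2 probes. In MS5 versus MS2 it was 1 with all arrays, 2 with array weights, where Igf2 joined, and 0 with only the groups compared. Leaving out 1 array gave 0 to 2 there: 0 without MS2 animal 1 or 3 or MS5 animal 9 or 14, and 2 without MS2 animal 5. Ins1 was past the threshold in MS5 versus Con under every alternative run for the count. None of these alternatives left out MS5 animals 9 and 14, the lowest in Ins1, together. The Ins1 difference in MS5 versus Con ranged from -1.38 with the scaled processed signal to -0.63 on slide 1, and turned sign under none of 25. Of 1275 recomputed member differences, 12 moved by more than the spread within groups, and 11 of these came from single slides or from leaving out MS2 animals 4 and 5 and MS5 animal 9 together. The other was Igf2r in MS5 versus Con, at -0.16 with the authors' values, which take 1 of its 10 spots. The cause of the other 11 moves was not tested. No paired analysis was possible, because each pup was in 1 group and which pups shared a litter is not given in the sources used here.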
